A study of Mus musculus with 18 samples.

Results

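The genes described here are 10 messenger RNAs of the early response to injury: the mRNA decay factors Zfp36, Zfp36l1 and Zfp36l2, the antiproliferative genes Btg1 and Btg2, the immediate early genes Ier2, Ier3 and Ier5, and the growth and stress regulators Myc and Gadd45b. They were taken by symbol from a table of 30583 genes, and all 10 passed the filter on low counts that left 16311 genes for testing. The question put to each gene was how its level moved over the first 72 h after a coronary artery was closed. RNA came from left ventricular tissue of 18 male C57BL/6JR mice aged 12 weeks, 3 mice to each of 6 groups and 1 library to each mouse. In 5 groups the left anterior descending artery was ligated to cause myocardial infarction (MI). Tissue of these mice was taken at 10 min, at 1 h, at 6 h, at 24 h or at 72 h. In the remaining group, sham, the suture was passed without being tied. No genetic change is named for any group, and all mice were given sodium pentobarbital before the operation and isoflurane at the end. Sham is labelled 0 h, so every comparison with sham uses the same 3 control libraries and none is matched for the time after surgery.

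The labels also give cardiomyocytes as the cell type, but no cell separation is described. A list of 7 cardiomyocyte markers had a summed level in CPM, the usual scaling of counts to library size, of 59819 to 65299 in sham libraries and to between 15258 and 20529 CPM at 72 h. A list of 6 fibroblast markers summed to between 662 and 738 CPM in sham and to between 9780 and 12322 CPM at 72 h. The libraries are therefore described as tissue, in which fewer cells of a type and less RNA per cell cannot be told apart.

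These genes are known for short-lived messages that cells make within minutes of a stimulus and remove again soon after. The ZFP36 proteins bind AU-rich elements in the 3′ untranslated region (UTR) of target mRNAs, many of which encode cytokines, and bring in the CCR4-NOT complex, which shortens the poly(A) tail. BTG1 and BTG2 bind the deadenylase subunits of the same complex and slow the cell cycle, and Btg2 is a target of p53. MYC pairs with MAX to drive genes of ribosome production and growth. GADD45B is a stress sensor that feeds p38 signalling, and the IER proteins are products of immediate early genes with roles in growth, survival and stress signalling.

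The regulatory sequence differed between the members. RefSeq promoter windows on GRCm38.p6 were held for 7 of the 10 genes, and the 250 bases before the start are shown for Zfp36, Btg2 and Ier3, because each holds a different motif of stimulus-dependent transcription and because Ier3 reached its highest mean later than the other 2. Zfp36 is on chr7:28379229-28379478 (minus strand), Btg2 on chr1:134079156-134079405 (minus strand) and Ier3 on chr17:35821463-35821712 (plus strand). Capitals mark the motifs, GCGGGGGCG and then a CArG box in Zfp36, TGACGTCA in Btg2 and a kappaB site in Ier3.
Zfp36: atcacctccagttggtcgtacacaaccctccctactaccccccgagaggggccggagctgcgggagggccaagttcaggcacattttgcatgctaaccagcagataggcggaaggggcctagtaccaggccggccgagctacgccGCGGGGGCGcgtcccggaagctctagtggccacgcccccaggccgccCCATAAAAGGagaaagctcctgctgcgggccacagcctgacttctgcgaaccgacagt
Btg2: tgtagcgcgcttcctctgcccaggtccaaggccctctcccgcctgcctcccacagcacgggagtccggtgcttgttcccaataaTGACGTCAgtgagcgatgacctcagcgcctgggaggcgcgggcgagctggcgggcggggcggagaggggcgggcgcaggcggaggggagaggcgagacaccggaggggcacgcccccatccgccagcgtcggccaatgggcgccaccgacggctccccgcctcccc
Ier3: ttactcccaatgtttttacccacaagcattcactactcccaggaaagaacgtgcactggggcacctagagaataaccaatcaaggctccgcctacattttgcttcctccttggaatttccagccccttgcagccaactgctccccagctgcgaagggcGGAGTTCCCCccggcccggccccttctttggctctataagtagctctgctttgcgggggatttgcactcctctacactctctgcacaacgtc
Distances are counted from the RefSeq starts, which are not the GENCODE gene starts for these 3 genes. The whole Zfp36 window lies inside the GENCODE M21 position of that gene given below (chr7:28376784-28380253). The CArG box, which serum response factor is known to bind, lay 58 to 49 bases before the RefSeq start of Zfp36. GCGGGGGCG, a letter pattern that EGR1 is known to bind, lay 105 to 97 bases before it. TGACGTCA, the palindrome known to bind CREB and ATF proteins, lay 166 to 159 bases before the start of Btg2, and the kappaB site, read on the minus strand of the window, lay 92 to 83 bases before the start of Ier3. The search covered both strands for 6 motifs, the other 2 being TGANTCA and TATAAA. Zfp36l1 held TGANTCA, and Zfp36l1, Btg1 and Gadd45b held TATAAA, while Ier5 held none of the 6. Of 32851 promoter windows of the same length, 1.63% held a CArG box, 1.79% TGACGTCA, 2.91% GCGGGGGCG, 7.81% TGANTCA, 8.46% a kappaB site and 13.6% TATAAA. A match is a description of letters and not evidence of binding in this tissue.

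Several members also carry the element that the ZFP36 proteins themselves bind. The heptamer TATTTAT, written as DNA and counted on the sense strand, occurred 4 times in the longest GENCODE M21 3′ UTR of Ier3 and 3 times each in those of Zfp36, Zfp36l1 and Zfp36l2. It occurred 1 time in Btg2 and was not found in the longest 3′ UTR of Btg1, Ier2, Ier5, Myc or Gadd45b. Of 13924 tested genes with an annotated 3′ UTR, 30.0% held at least 1 copy and 4.09% at least 3. The 4 genes with at least 3 copies had 3′ UTRs of 613 bases in Ier3, 774 in Zfp36, 1835 in Zfp36l1 and 1822 in Zfp36l2, beside a median of 1182 bases over those tested genes. The sites are shown with their flanks for Zfp36 and Ier3, the members with the most copies per length, and 1 site each for the other 2, with the heptamer in capitals.
Zfp36 site 1: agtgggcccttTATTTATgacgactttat
Zfp36 site 2: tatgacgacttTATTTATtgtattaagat
Zfp36 site 3: agattttatagTATTTATatatattgggt
Ier3 site 1: tgtctaattaaTATTTATgtatttatgta
Ier3 site 2: taatatttatgTATTTATgtatatcctcc
Ier3 site 3: ggtgtatgtaaTATTTATtctaacttatg
Ier3 site 4: tgtaacacagaTATTTATtacgatttata
Zfp36l1 site 1: ttatcaaaacgTATTTATtgccaaactat
Zfp36l2 site 1: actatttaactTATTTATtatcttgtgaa
Neighbouring sites of Zfp36, and the first 2 of Ier3, lie close enough that their printed flanks overlap.

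Libraries held between 18199172 and 25062351 gene counts. Levels are given as CPM after TMM scaling, mean ± SD over 3 mice, and tests are those of edgeR's quasi-likelihood model with Benjamini-Hochberg adjustment over all 16311 genes. A gene is called higher or lower where its adjusted p is under 0.05, and fold changes are the model's. When libraries were divided by their totals alone, the median log2 change of all genes against sham became -0.12 for the 6 h group, 0.20 for the 24 h group and 0.61 for the 72 h group. The share of calls that were higher then moved from 57.2% to 40.6%, from 54.0% to 75.5% and from 51.4% to 79.9% in the same order, so late changes here are relative to a TMM scale that holds that median near 0. Among the libraries, 2 stood apart in their markers and bear on many values below. MI 6 h replicate 1 had a summed level of atrial muscle markers (Myl4, Myl7 and Sln) of 151 CPM, against 1.47 to 3.41 CPM in all other libraries. A list of 7 neutrophil markers summed to 923 CPM in that library and to 984 CPM in MI 24 h replicate 3, the highest 2 of the 18 libraries. The direction of the members' calls against sham was the same on both scales. All 10 members had the highest level of their group in MI 6 h replicate 1 and again in MI 24 h replicate 3. The overlap of Zfp36, Zfp36l1 and Zfp36l2 with genes on the opposite strand (Gm44710, Gm26669 and AC132455.1) leaves their counts uncertain to the extent that reads of both strands were pooled, since no source used here states the use of strand.

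The members reached their highest means at different times, and in the fit of all 18 libraries none was called lower than sham. The number of all genes called differed greatly between comparisons, with 48 at 1 h and 4639 at 6 h. The p needed for a call differed with it, so counts of members called do not by themselves date a rise. At 10 min none of the 10 was called by edgeR, and 3 (Zfp36, Btg2 and Ier2) had an unadjusted p under 0.05. So did 1144 of the 16311 tested genes in the same comparison. In that comparison 0.0307% of tested genes were called higher and 0.0429% lower. At 1 h 4 members were called higher (Zfp36, Btg2, Ier2 and Ier5) where 0.288% of tested genes were higher and 0.00613% lower. At 6 h all 10 were called higher, beside 16.3% of tested genes higher and 12.2% lower. At 24 h 8 were called higher, all but Zfp36l1 and Gadd45b, beside 23.7% higher and 20.2% lower. At 72 h 8 were again called higher, all but Btg2 and Ier3, where the background was 34.2% higher and 32.2% lower. The median log2 fold change of the members was 0.09 at 10 min, 1.42 at 1 h, 1.83 at 6 h, 1.34 at 24 h and 0.82 at 72 h, while that of all tested genes lay between -0.01 and 0.03. In the F test for a difference at any time all 10 members passed, beside 78.4% of tested genes. Leaving out MI 6 h replicate 1 lowered the number of members called at 6 h from 10 to 7, with Zfp36l1 (adjusted p = 0.07), Btg1 (0.0519) and Gadd45b (0.0702) no longer called. Leaving out both libraries with the highest neutrophil marker sums gave 10 calls at 6 h and 8 at 24 h.

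**Figure D1:**
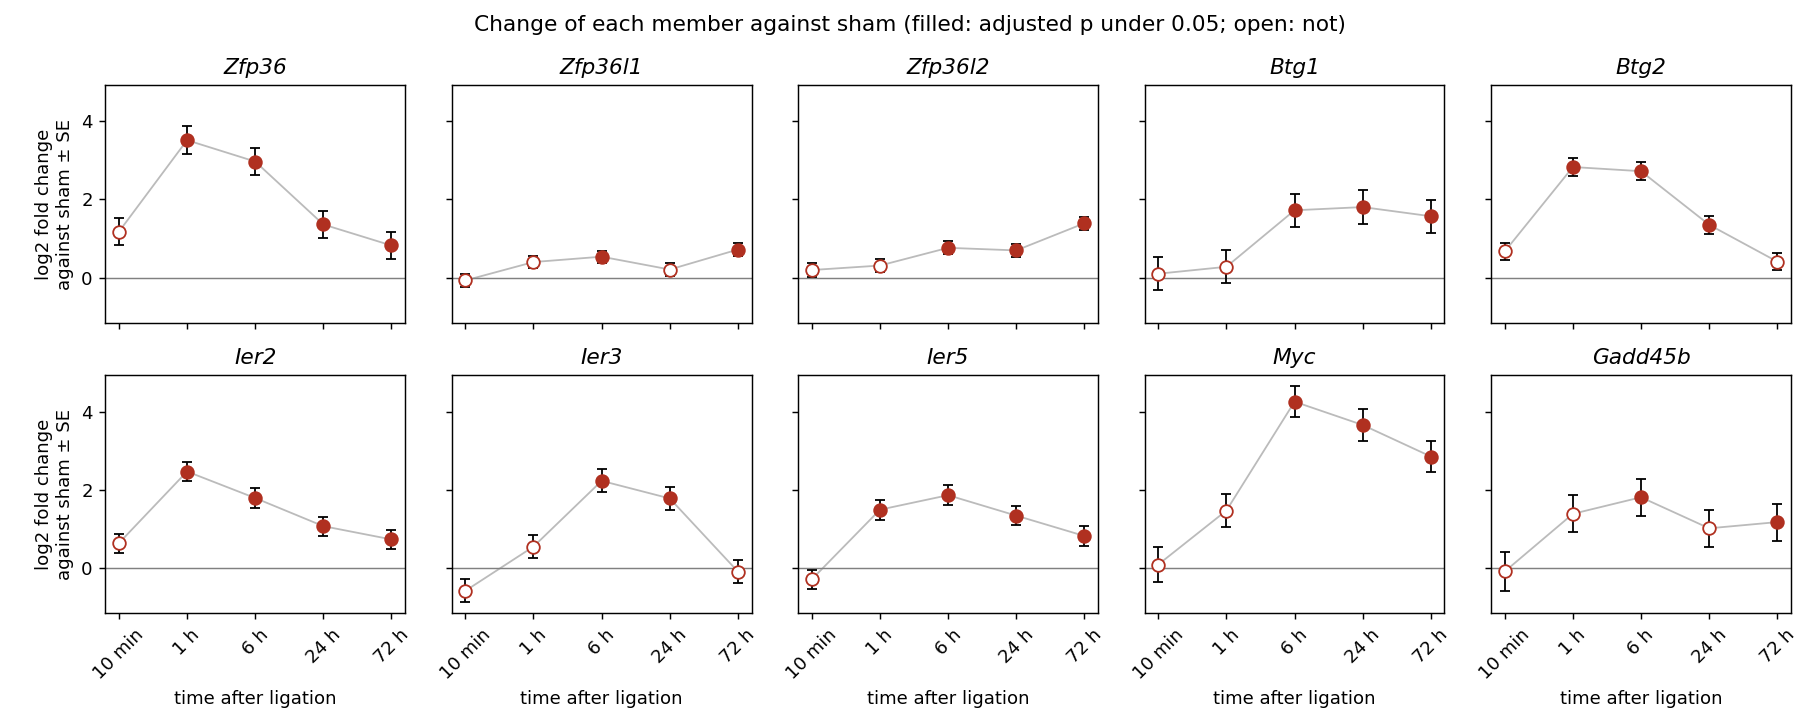
Log2 fold change of each member against sham (vertical axis, ± SE of the edgeR model) at the 5 times after ligation (horizontal axis), with filled points where the adjusted p was under 0.05. By mean CPM, Zfp36, Btg2 and Ier2 were highest at 1 h, Ier3, Ier5, Myc and Gadd45b at 6 h, Btg1 at 24 h, and Zfp36l1 and Zfp36l2 at 72 h. Of these, only Ier2 (adjusted p = 0.0485) and Zfp36l2 (0.00328) passed the edgeR test between the highest and the next group. The call of Ier2 was lost in alternatives given in the text. Without MI 24 h replicate 3 the 24 h mean of Btg1 was 47.8 CPM, below its means at 6 h and 72 h. Without MI 6 h replicate 1 the 6 h mean of Gadd45b was 27.0 CPM, below its 28.1 CPM at 1 h.

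Gene positions are those of GENCODE M21 on GRCm38. Zfp36 (chr7:28376784-28380253, minus strand), which encodes tristetraprolin, gave the steepest early rise of the decay factors. The sham libraries held 15.8, 20.3 and 16.4 CPM, those at 10 min 53.4, 32.5 and 32.8 CPM, and those at 1 h 185, 170 and 247 CPM. At 6 h the values were 221, 90.0 and 102 CPM, at 24 h 34.7, 34.9 and 65.5 CPM, and at 72 h 31.1, 30.3 and 31.4 CPM. Every library taken after ligation was above every sham library, and the 1 h and 6 h groups overlapped through MI 6 h replicate 1. The mean rose from 17.5 ± 2.45 CPM in sham to 201 ± 40.4 CPM at 1 h, an 11.5-fold increase (log2 fold change 3.52, SE 0.36, adjusted p = 0.000219). At 10 min the log2 change was 1.17 (SE 0.35) with an adjusted p of 0.421, so the difference did not pass the test although the groups did not overlap. That difference passed without the 2 libraries with the highest neutrophil marker sums (1.17, adjusted p = 0.00828), an alternative chosen after seeing the data. The changes at 6 h (2.97, SE 0.36) and 24 h (1.36, SE 0.34) passed. At 72 h the change was 0.82 (SE 0.34, adjusted p = 0.0466), and that call was lost when any 1 of 12 libraries was left out, with adjusted p between 0.0503 and 0.121. Those were all 3 libraries each of sham, 1 h and 72 h, replicates 2 and 3 at 10 min and replicate 1 at 24 h. The 72 h call was also lost with no filter on low counts (0.0944) and with a replicate block (0.0519).

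Zfp36l1 (chr12:80107754-80113013, minus strand) and Zfp36l2 (chr17:84183931-84187947, minus strand) are the close relatives that bind the same element. Both had their highest means at 72 h, later than Zfp36, and their largest changes were smaller than that of Zfp36. Zfp36l1 held 42.4, 46.6 and 45.6 CPM in sham and 78.9, 72.7 and 69.9 CPM at 72 h, its highest mean. At 1 h it held 66.1, 54.9 and 56.3 CPM, above all sham libraries. That change of 0.40 (SE 0.16, adjusted p = 0.758) passed in the fit of the 6 libraries alone (0.0183). Zfp36l1 was called higher at 6 h (65.0 ± 5.57 against 44.9 ± 2.19 CPM, log2 fold change 0.53, adjusted p = 0.0163) and at 72 h (0.72, SE 0.16, adjusted p = 0.000536). That at 6 h was lost without sham replicate 1 (adjusted p = 0.0632), without MI 6 h replicate 1 (0.07), with libraries scaled by their totals alone (0.0631) and with limma on log2(FPKM + 1) or log2(FPKM + 0.1) (0.0844 and 0.0769). Zfp36l2 held 39.2, 47.1 and 48.6 CPM in sham, 94.2, 68.4 and 66.4 CPM at 6 h, 59.6, 62.9 and 96.2 CPM at 24 h and 110, 123 and 121 CPM at 72 h. All 9 libraries from 6 h on were above all sham libraries, and the 72 h libraries were the highest of all. The log2 fold change of Zfp36l2 was 0.76 at 6 h, 0.70 at 24 h and 1.39 (SE 0.17, adjusted p = 1.32e-06) at 72 h, and these 3 calls held in each alternative and with each library left out.

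Within the family the most abundant member changed over time. The share of each gene in the summed FPKM of the 3 (fragments per kilobase, scaled to library size, a level per length) does not depend on how libraries are scaled, whereas the sum does. Zfp36 made up 15.4% ± 1.42 of the family in sham, 61.6% ± 4.05 at 1 h, 45.9% ± 8.71 at 6 h, 25.05% ± 2.11 at 24 h and 13.3% ± 0.415 at 72 h. Zfp36l2 had 38.8% ± 1.85 in sham, 16.96% ± 0.684 at 1 h and 49.8% ± 2.63 at 72 h, and Zfp36l1 45.8% ± 1.48, 21.4% ± 3.49 and 36.9% ± 2.48. The 3 summed to 30.4 ± 2.69 FPKM in sham, 84.8 ± 10.4 FPKM at 1 h and 93.2 ± 2.81 FPKM at 72 h. FPKM is scaled by library totals, so the sum at 72 h carries the upward shift of all genes given above for that scale, and the sums are not compared between times. By share, Zfp36 was in first place at 1 h and in last place at 72 h.

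**Figure D2:**
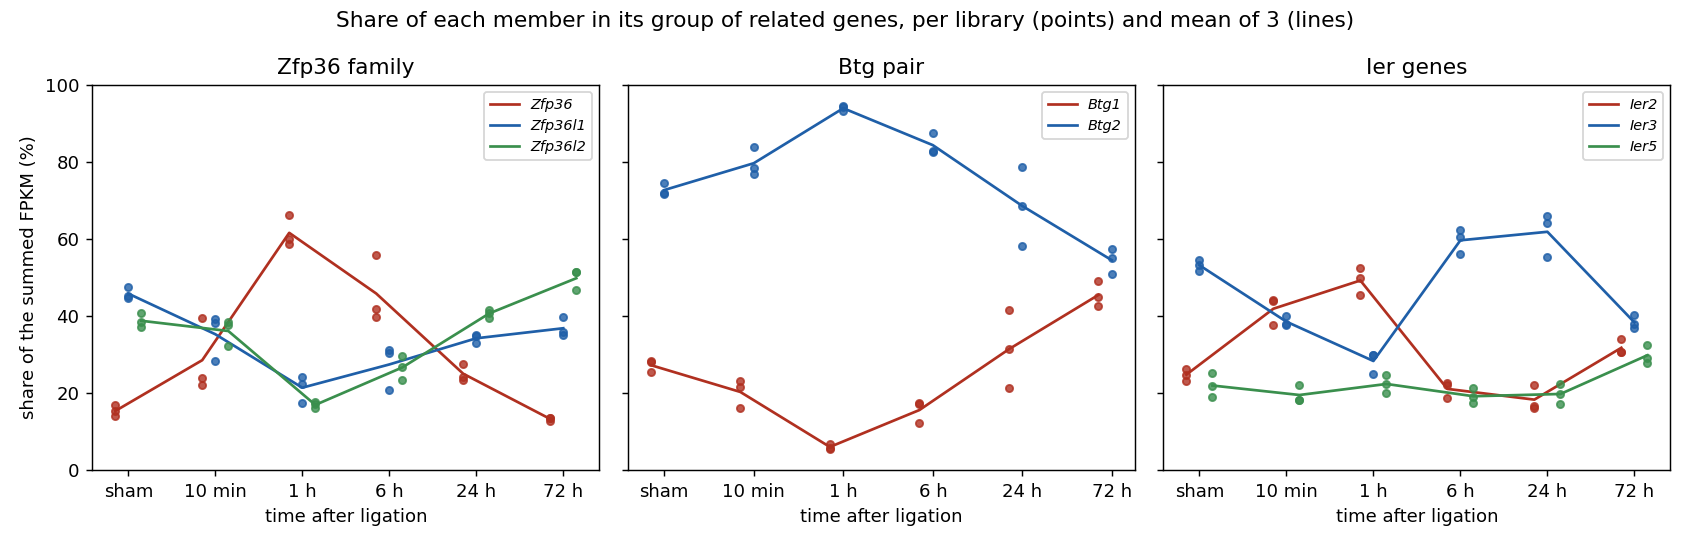
Share of each gene in the summed FPKM of its group of related genes (vertical axis, %) by time after ligation (horizontal axis), with a point per library and lines through the mean of 3. Zfp36 reached 61.6% of its family at 1 h, Btg2 reached 94.0% of the pair at 1 h, and Ier3 was between 55.4% and 66.1% of the Ier genes at 24 h.

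Btg2 (chr1:134075170-134079120, minus strand) was called higher than sham at 1 h, at 6 h and at 24 h. Sham libraries held 33.5, 32.9 and 33.5 CPM, those at 10 min 60.5, 48.1 and 50.3 CPM, and those at 1 h 202, 232 and 276 CPM. The values were 307, 155 and 198 CPM at 6 h, 62.9, 77.9 and 114 CPM at 24 h, and 42.4, 45.8 and 44.3 CPM at 72 h. Every library after ligation was above all 3 sham libraries, which differed by less than 1 CPM from each other. The increase was 7.12-fold at 1 h (log2 fold change 2.83, SE 0.24, adjusted p = 4.31e-05), 6.61-fold at 6 h (2.72, SE 0.24, adjusted p = 1.86e-06) and 2.55-fold at 24 h (1.35, SE 0.23). At 72 h it was 1.33-fold (0.41, SE 0.22) with an adjusted p of 0.121. That value passed when libraries were scaled by their totals alone (log2 fold change 0.99, adjusted p = 0.00061) and when the 6 libraries were fitted by themselves (0.41, adjusted p = 0.000136), and also with limma on log2 FPKM. At 10 min the change was 0.67 (SE 0.23, adjusted p = 0.494), and it passed in the fit of the 6 libraries alone (adjusted p = 0.00043).

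Btg1 (chr10:96617006-96622809, plus strand), the other member of the pair, did not pass at 1 h (29.1 ± 3.25 against 24.0 ± 1.81 CPM) and was called from 6 h on. Its libraries held 25.1, 25.1 and 21.9 CPM in sham, 122, 62.7 and 53.8 CPM at 6 h, 55.2, 40.4 and 157 CPM at 24 h and 60.6, 71.6 and 81.9 CPM at 72 h. All 9 later libraries were above all sham libraries, but the spread within 6 h and 24 h was wide, with a coefficient of variation of 46.5% and 75.4% against 14.9% at 72 h. The fold changes were 3.30 at 6 h (adjusted p = 0.00906), 3.49 at 24 h (0.00412) and 2.97 at 72 h (0.00498). Without MI 6 h replicate 1 the mean at 6 h was 58.3 CPM and the adjusted p 0.0519. Without MI 24 h replicate 3 the mean at 24 h was 47.8 CPM, 1.76 times lower than with it, and the call stayed. Of the summed FPKM of the pair, Btg2 took 72.7% ± 1.64 in sham, 94.0% ± 0.683 at 1 h, 84.4% ± 2.81 at 6 h, 68.6% ± 10.2 at 24 h and 54.5% ± 3.24 at 72 h.

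Ier2 (chr8:84661331-84662852, minus strand), which encodes a nuclear immediate early protein, followed Zfp36 and Btg2. Its libraries held 20.7, 18.3 and 23.9 CPM in sham, 34.3, 28.7 and 34.7 CPM at 10 min, 111, 91.1 and 146 CPM at 1 h, 90.6, 57.7 and 69.3 CPM at 6 h, 28.0, 41.7 and 62.6 CPM at 24 h and 35.5, 35.1 and 33.7 CPM at 72 h. Every library after ligation was above every sham library. The log2 fold change was 2.47 at 1 h (SE 0.25, adjusted p = 0.000143), 1.79 at 6 h (adjusted p = 0.000124), 1.07 at 24 h (0.0028) and 0.73 at 72 h (0.016). The last call was lost without sham replicate 2 (adjusted p = 0.064). At 10 min the change of 0.63 (SE 0.25) did not pass (adjusted p = 0.606), and it passed in the fit of the 6 libraries alone (0.00537).

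Ier3 (chr17:35821684-35822923, plus strand), which encodes a stress-induced regulator of survival signalling, had its lowest level at 10 min and its highest at 6 h. Sham libraries held 31.9, 30.2 and 38.2 CPM, those at 10 min 22.0, 22.6 and 22.1 CPM, those at 1 h 49.7, 44.7 and 51.9 CPM and those at 6 h 224, 118 and 128 CPM. At 24 h they held 82.5, 77.6 and 184 CPM and at 72 h 29.3, 34.3 and 30.2 CPM. All 3 libraries at 10 min were below all sham libraries, and those at 1 h, 6 h and 24 h were above them. The log2 difference at 10 min was -0.59 (SE 0.30, adjusted p = 0.76), and it passed in the fit of the 6 libraries alone (-0.59, adjusted p = 0.00213). The change at 1 h was 0.54 (SE 0.29, adjusted p = 0.934), and it too passed in such a fit (0.00523). Ier3 was called at 6 h (4.68-fold, log2 fold change 2.23, SE 0.30, adjusted p = 0.000107) and at 24 h (3.43-fold, adjusted p = 0.000295). At 72 h the log2 difference was -0.10 (SE 0.29, adjusted p = 0.783), and its sign depended on the scale, since it reached 0.49 among the alternatives.

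Ier5 (chr1:155096361-155099636, minus strand), an immediate early gene tied to heat shock factor signalling, was called at 1 h and at each later time. Its mean was 40.0 ± 7.08 CPM in sham, 32.6 ± 3.10 CPM at 10 min, 112 ± 19.2 CPM at 1 h, 145 ± 50.1 CPM at 6 h, 101 ± 34.0 CPM at 24 h and 70.5 ± 7.58 CPM at 72 h. The highest sham library held 45.4 CPM and the lowest library from 1 h on 62.3 CPM, so the groups did not overlap. The fold changes were 2.81 at 1 h (log2 fold change 1.49, SE 0.25, adjusted p = 0.0133), 3.63 at 6 h (adjusted p = 0.000109), 2.53 at 24 h (0.000674) and 1.76 at 72 h (0.00906). The call at 1 h was lost without sham replicate 1 (adjusted p = 0.117), sham replicate 2 (0.0736) or MI 1 h replicate 3 (0.0728), and with no filter on low counts (0.0652). On the FPKM scale Ier3 was 53.2% ± 1.51 of the sum of the 3 Ier genes in sham, 28.4% ± 2.83 at 1 h and 61.9% ± 5.67 at 24 h. Ier2 was 24.8% ± 1.58, 49.3% ± 3.63 and 18.3% ± 3.32 of it at the same times, so Ier2 led at 1 h and Ier3 in sham and at 24 h. The share of Ier5 lay between 17.2% and 25.1% in every library up to 24 h and between 27.9% and 32.5% at 72 h.

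Myc (chr15:61985391-61990374, plus strand), the growth-promoting transcription factor, had the largest fold change of the 10 members at 6 h, 24 h and 72 h. Its sham libraries held 37, 44 and 52 counts, or 1.87, 2.28 and 2.31 CPM, and those at 10 min 2.49, 1.64 and 2.85 CPM. The values were 6.38, 6.10 and 5.42 CPM at 1 h, 61.7, 27.8 and 34.6 CPM at 6 h, 17.4, 19.8 and 45.1 CPM at 24 h and 13.4, 18.4 and 15.0 CPM at 72 h. From 1 h on every library was above every sham library, while the 10 min group overlapped with sham. The fold changes were 19.1 at 6 h (log2 fold change 4.26, SE 0.40, adjusted p = 6.65e-06), 12.6 at 24 h (3.66, SE 0.40, adjusted p = 1.03e-05) and 7.21 at 72 h (2.85, SE 0.39, adjusted p = 1.31e-05). At 1 h the log2 change was 1.47 (SE 0.42, adjusted p = 0.349), and that difference passed in DESeq2 (adjusted p = 0.00668) and in the fit of the 6 libraries alone (0.000153). Without MI 6 h replicate 1 the mean at 6 h was 31.2 CPM, and without MI 24 h replicate 3 the mean at 24 h was 18.6 CPM. Even at 6 h Myc was among the less abundant members per length, with 12.95 ± 5.10 FPKM beside 118 ± 39.5 FPKM for Ier3.

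Gadd45b (chr10:80930073-80932204, plus strand), which encodes a stress sensor upstream of p38 kinase, was called at 6 h and 72 h. Its libraries held 10.4, 12.7 and 9.20 CPM in sham, 20.1, 27.3 and 36.7 CPM at 1 h, 59.0, 26.7 and 27.4 CPM at 6 h, 12.6, 10.97 and 42.0 CPM at 24 h and 23.6, 23.2 and 25.8 CPM at 72 h. The 24 h group overlapped with sham in 2 of its 3 libraries, and the groups at 1 h, 6 h and 72 h did not overlap with sham. At 1 h the log2 change was 1.38 (SE 0.48, adjusted p = 0.666). It passed without the 2 libraries with the highest neutrophil marker sums (1.38, adjusted p = 0.00191), an alternative chosen after seeing the data. At 6 h the fold change was 3.50 (log2 1.81, SE 0.48, adjusted p = 0.0129), a call lost without MI 6 h replicate 1 (0.0702) or sham replicate 3 (0.052). Without MI 6 h replicate 1 the mean at 6 h was 27.0 CPM, beside a mean of 28.1 CPM at 1 h. At 72 h it was 2.25 (log2 1.17, SE 0.47, adjusted p = 0.0418), and leaving out any 1 of 8 libraries gave an adjusted p between 0.0525 and 0.116. These were the 3 sham and the 3 72 h libraries, MI 10 min replicate 2 and MI 1 h replicate 2. The 72 h call was also lost with no filter on low counts (0.0804) and with a replicate block (0.056). At 24 h the log2 change was 1.01 (SE 0.48, adjusted p = 0.102). Without MI 24 h replicate 3 the mean at 24 h was 11.8 CPM instead of 21.9 CPM, 1.86 times lower, and without MI 24 h replicate 2 the adjusted p was 0.0351.

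**Figure D3:**
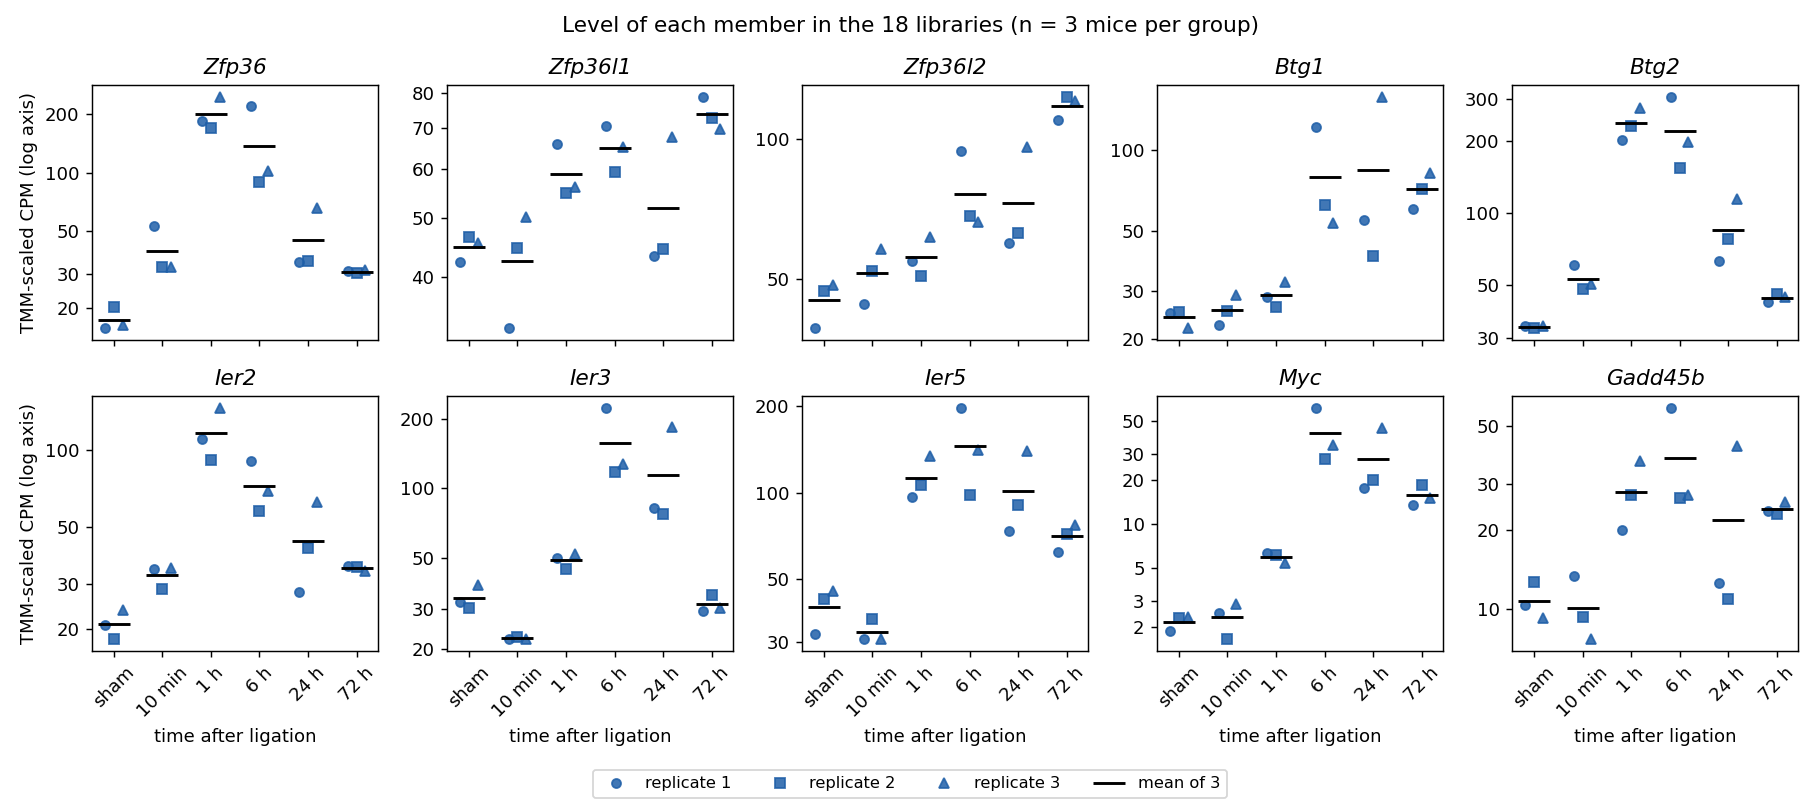
TMM-scaled CPM of each member (vertical axis, log scale) by group (horizontal axis), with a symbol per replicate and a bar at the mean of 3 mice. The sham libraries of Btg2 lie between 32.9 and 33.5 CPM and those at 1 h between 202 and 276 CPM, while Myc is at 1.87 to 2.31 CPM in sham and at 27.8 to 61.7 CPM at 6 h.

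Each time was also compared with the one before it. From 10 min to 1 h 4 members rose (Zfp36, Btg2, Ier2 and Ier5, with log2 changes of 2.34, 2.16, 1.84 and 1.78) where 0.251% of tested genes were called higher and 0.0552% lower. Without MI 10 min replicate 3 the calls of Zfp36 (adjusted p = 0.0794) and Ier5 (0.0663) were lost and 2 remained. Without MI 10 min replicate 2 that of Zfp36 (0.0814) was lost. Ier3 (log2 change 1.13, adjusted p = 0.199) and Myc (1.38, 0.319) did not pass in this step. Both passed in DESeq2 (0.00696 and 0.0165) and in the fit of the 6 libraries alone (1.62e-06 and 0.00199). Ier3 also passed without MI 24 h replicate 3 (0.00754). From 1 h to 6 h Btg1 (log2 change 1.45), Ier3 (1.68) and Myc (2.79) rose and Ier2 fell by 0.68, beside 14.5% of tested genes higher and 10.0% lower. The rise of Btg1 was lost without MI 6 h replicate 1 (adjusted p = 0.13) or any 1 of the 3 1 h libraries (0.056 to 0.0821), and with no filter on low counts (0.0512). The fall of Ier2 (adjusted p = 0.0485) was lost without any 1 of 14 libraries, with adjusted p between 0.0552 and 0.196, with no filter on low counts (0.131) and in the fit of the 6 libraries alone (0.0581). Of the fits with 1 library left out it held only in those without MI 1 h replicate 2, MI 6 h replicate 1, MI 24 h replicate 1 or MI 24 h replicate 3. Zfp36 did not pass between 1 h and 6 h (log2 difference -0.55, adjusted p = 0.247) but was called lower without MI 6 h replicate 1 (0.0178). Zfp36l2 did not pass either (log2 difference 0.45, adjusted p = 0.059). It was called higher with a replicate block (0.0451) and in the fit of the 6 libraries alone (0.0415). The same held without MI 6 h replicate 3 (0.0445) or MI 24 h replicate 3 (0.0118).

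From 6 h to 24 h 3 members fell, Zfp36 by 1.61, Btg2 by 1.37 and Ier2 by 0.72 on the log2 scale, and none rose, beside 14.2% of tested genes higher and 13.7% lower. Without MI 24 h replicate 3, 8 members were called lower at 24 h than at 6 h, the added ones being Zfp36l1 (adjusted p = 0.00484), Ier3 (0.00306), Ier5 (0.0223), Myc (0.0051) and Gadd45b (0.00485). The fall of Ier2 (adjusted p = 0.0354) was lost without replicate 1 or 3 at 6 h or replicate 1 or 2 at 24 h (0.0633 to 0.142). It was also lost with library totals (log2 difference -0.40, adjusted p = 0.196), with no filter on low counts (0.106), in the fit of the 6 libraries alone (0.175) and with limma on log2(FPKM + 1) or log2(FPKM + 0.1) (0.134 and 0.125). That of Zfp36 (0.00305) was lost in the fit of the 6 libraries alone (0.0729). From 24 h to 72 h Zfp36l1 (log2 change 0.51) and Zfp36l2 (0.70) rose, Btg2 fell by 0.94 and Ier3 fell by 1.87, beside 24.4% of tested genes higher and 26.1% lower. The rise of Zfp36l1 (adjusted p = 0.0102) was lost without MI 24 h replicate 1 (0.0679) or MI 24 h replicate 2 (0.055) and in the fit of the 6 libraries alone (0.0505), and the fall of Btg2 (0.00222) with limma on log2(FPKM + 1) (0.0523). Of the libraries left out 1 at a time, only MI 24 h replicate 3 made Gadd45b a call, higher at 72 h than at 24 h (0.0244). Myc had a log2 difference of -0.81 (adjusted p = 0.0523). It was called lower in DESeq2 (0.0341) and without replicate 1 or 2 at 6 h or replicate 1 or 2 at 24 h (0.0225 to 0.041).

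Ordered by their group means, the members therefore did not share a single sequence of levels. In this order, groups are said to differ where they were called, and a pair that was not called is not shown to be equal. In Zfp36 and Btg2 the means at 1 h and 6 h were the highest and were not called apart (adjusted p = 0.247 and 0.763), and the 6 h group exceeded the 24 h group in both. In Ier2 the 1 h group was above the 6 h group and the 6 h group above the 24 h group, with the latter pair overlapping and both steps lost in the alternatives given above, and 24 h did not differ from 72 h (adjusted p = 0.256). In Ier3 the 6 h and 24 h groups were not called apart (adjusted p = 0.256), but they were without MI 24 h replicate 3 (0.00306). The 24 h group of Ier3 exceeded the 1 h group by 1.23 on the log2 scale (adjusted p = 0.00328). In Myc 6 h, 24 h and 72 h followed each other without a step between neighbours that passed, and the 72 h group exceeded the 1 h group (1.38, adjusted p = 0.00299). Its 3 libraries at 6 h (27.8 to 61.7 CPM) were all above its 3 libraries at 72 h (13.4 to 18.4 CPM). In Btg1 24 h, 6 h and 72 h did not differ, and 72 h exceeded 1 h by 1.29 (adjusted p = 0.0149). In Zfp36l2 the 72 h group exceeded the next, 6 h, by 0.63 (adjusted p = 0.00328), while in Zfp36l1 and Gadd45b no neighbours in the order of means differed. In Ier5 the only neighbours that differed were 72 h and sham (0.82, adjusted p = 0.00906).

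The libraries that stood apart set much of the spread within 6 h and 24 h. In MI 6 h replicate 1 the members were between 1.13 times (Zfp36l1) and 2.30 times (Zfp36) the mean of the other 2 libraries of the group. In MI 24 h replicate 3 they were between 1.54 times (Zfp36l1) and 3.57 times (Gadd45b) that mean, with Btg1 at 3.29 times. The neutrophil marker sum was 923, 432 and 269 CPM in replicates 1, 2 and 3 at 6 h and 296, 108 and 984 CPM at 24 h, against 5.37 to 7.57 CPM in sham, and all 7 of these markers were called higher at both times. Macrophage markers (7 genes) summed to between 240 and 466 CPM at 6 h and between 560 and 793 CPM at 24 h, again highest in MI 6 h replicate 1 and MI 24 h replicate 3. The part that neutrophils, macrophages or atrial tissue have in the members' levels was not tested. At 1 h, when Zfp36, Btg2, Ier2 and Ier5 were called, the neutrophil sum was between 19.4 and 28.4 CPM, above all sham libraries, with a median log2 change of 1.80 over the 7 markers, of which none was called. The macrophage markers had a median log2 change of 0.02 at 1 h, and none was called. At 72 h, where Zfp36l1 and Zfp36l2 were highest, all 7 macrophage markers were called higher, with a sum of 3150 to 4164 CPM against 253 to 287 CPM in sham, all 6 fibroblast markers were higher and all 7 cardiomyocyte markers were lower. The part of these cell types in the late rise was not tested either.

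**Figure D4:**
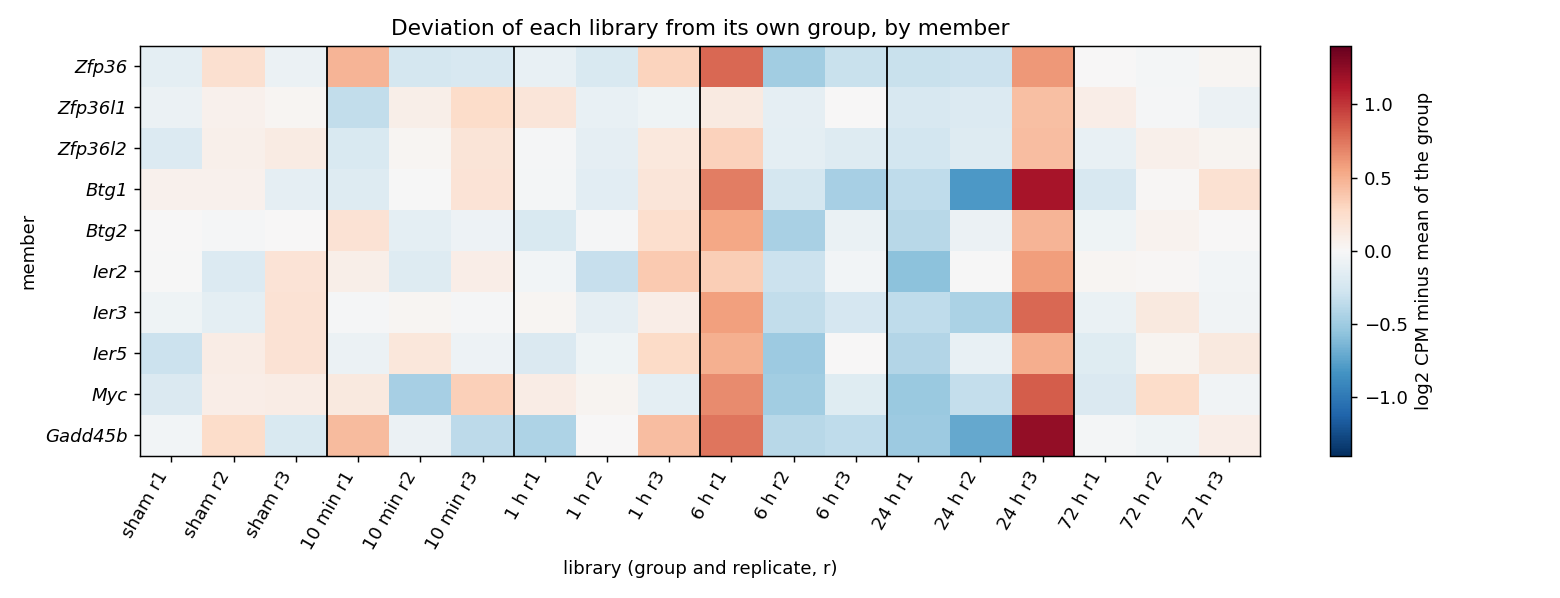
Deviation of each library (horizontal axis, by group and replicate) from the mean log2 CPM of its own group, for each member (vertical axis), with red above and blue below the group mean. The columns of MI 6 h replicate 1 and MI 24 h replicate 3 are red for all 10 members.

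Genes related to the members by sequence were taken from a list of relatives, beside a background of 16.3% of tested genes higher and 12.2% lower at 6 h and of 34.2% and 32.2% at 72 h. Of 9 relatives 8 were tested. At 6 h 5 rose and 1 fell (Mycn), with a median log2 change of 0.65, and at 24 h 3 rose and Mycn fell. At 72 h 3 rose (Btg3, Ier5l and Mycl) and 3 fell (Tob1, Tob2 and Gadd45a). Btg3, Mycl, Mycn and Gadd45a are named here after their values were seen. Ier5l, a paralog of Ier5, was called higher at 6 h (40.4 ± 6.73 against 14.7 ± 2.68 CPM, log2 fold change 1.45), at 24 h (1.30) and at 72 h (1.44), and its log2 difference at 1 h was -0.33 (adjusted p = 0.965). The antiproliferative relatives Tob1 and Tob2, which also bind the deadenylase complex, were lower at 72 h by 0.86 and 0.99 on the log2 scale, and Tob2 was higher at 6 h (0.41, adjusted p = 0.0288). With libraries scaled by their totals alone both were still lower at 72 h (-0.28 and -0.40, adjusted p = 0.0476 and 0.0161), while Gadd45a no longer passed (-0.31, adjusted p = 0.152). Tob1 and Tob2 were thus lower than sham at a time when Btg1 was higher.

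The enzymes through which the ZFP36 and BTG proteins act are given beside the same background of all tested genes, 16.3% higher and 12.2% lower at 6 h, 23.7% and 20.2% at 24 h, and 34.2% and 32.2% at 72 h. At 72 h the direction of their falls depended on the scale. Of 14 deadenylase and CCR4-NOT genes none was called at 1 h, 1 fell at 6 h (Cnot8), 1 rose and 2 fell at 24 h, and 3 rose and 2 fell at 72 h, with a median log2 change between 0.01 and 0.03 at each time. Cnot6, a catalytic subunit, was the furthest from sham at 72 h (61.0 ± 6.49 against 27.7 ± 2.85 CPM, log2 fold change 1.14, adjusted p = 7.35e-08). Cnot9 rose by 0.68 at that time, and Cnot10 had a log2 difference of -0.45 on the TMM scale and 0.13 with library totals alone. On the scale of library totals 12 of the 14 were called higher at 72 h and none lower. Of 9 decapping and 5′ decay genes the enhancer Edc3 was the only one called at 6 h and at 24 h, with log2 fold changes of -0.61 and -0.70, and it was lower with library totals too (-0.71 and -0.50). At 72 h 1 of them rose (the decapping enzyme Dcp2, 0.58) and 3 were lower (Edc3, Edc4 and Patl1), but with library totals 6 were higher and none lower. Of 10 tested exosome genes 1 rose at 6 h, 5 rose at 24 h, and 2 rose and 3 were lower at 72 h, where library totals gave 8 higher and none lower. Exosc2, a cap subunit of the exosome, was higher at 6 h (0.58), 24 h (0.89) and 72 h (0.60), and Exosc8 at 24 h (0.49) and 72 h (0.70), while Exosc4 at 72 h had -0.48 on the TMM scale and 0.11 with library totals. The median log2 change of the exosome list was 0.14 at 6 h, 0.25 at 24 h and 0.11 at 72 h.

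Other factors that bind AU-rich or related elements included 1 gene with a time course near that of the 6 h members. Zc3h12a, which encodes the endonuclease regnase-1, held 6.41 ± 0.710 CPM in sham and 18.5 ± 8.38 CPM at 6 h (log2 fold change 1.52, adjusted p = 0.0019), and was also higher at 24 h (1.02) and 72 h (0.74). Of the 11 genes in that list 3 rose and 2 fell at 6 h, 3 rose at 24 h, and 3 rose and 2 fell at 72 h, Celf1 among the last. It had a log2 difference of -0.33, which was called the other way with library totals (0.26), where all 11 were higher. The cytokine and other inflammatory messages with AU-rich elements, a class that ZFP36 proteins are known to bind, made up a list of 13 genes. At 1 h 1 of these was called higher (Cxcl1). At 6 h and again at 24 h 10 were higher, and at 72 h 8 were higher and 1 fell (Vegfa, by 1.11, and by 0.53 with library totals). Their median log2 change was 2.89 at 1 h, 4.96 at 6 h, 4.61 at 24 h and 3.72 at 72 h. With 2 genes at or under the floor of 3 counts in the sham libraries set to their lower bound, and 1 that was at the floor in both groups left out, the medians were 1.74, 4.76, 4.54 and 3.63. Ccl2, a monocyte chemokine, held 47.4 ± 13.7 CPM at 6 h and 57.6 ± 26.2 CPM at 72 h against 2.25 ± 0.287 CPM in sham, and the cytokine gene Lif 9.94 ± 5.39 CPM at 6 h against 0.420 ± 0.101 CPM.

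Genes around Myc and growth arrest are read against all tested genes, of which 16.3% were higher and 12.2% lower at 6 h, 23.7% and 20.2% at 24 h, and 34.2% and 32.2% at 72 h. Of 15 growth genes known to respond to MYC none was called at 1 h, 11 rose at 6 h, 15 at 24 h, and 9 rose and 3 fell at 72 h (12 higher and none lower with library totals), with a median log2 change of 0.57, 0.83 and 0.42 at the last 3 times. Srm, the spermidine synthase gene, rose from 17.4 ± 0.409 CPM in sham to 38.1 ± 5.97 CPM at 6 h and 48.8 ± 14.2 CPM at 24 h. Npm1, which encodes the nucleolar protein nucleophosmin, rose from 103 ± 6.47 CPM to 152 ± 7.32 and 207 ± 29.04 CPM, and Cdk4, a cell cycle kinase gene, was called at 24 h (0.57) and 72 h (1.13). Of 9 partners and antagonists of MYC 2 rose at 6 h and at 24 h, and 1 rose and 2 fell at 72 h (6 higher and none lower with library totals). MAX itself was higher at 6 h (Max, 71.9 ± 5.33 against 51.5 ± 1.22 CPM, log2 fold change 0.48), Mxi1 fell by 0.81 at 72 h (-0.23, adjusted p = 0.123, with library totals), and Mxd3 went from 1 to 8 counts in the sham libraries to between 347 and 475 counts at 72 h. Of 13 genes linked to p53 6 rose at 6 h, 7 rose and 2 fell at 24 h, and 9 rose and 2 fell at 72 h (11 and 1 with library totals), with a median log2 change of 0.26, 0.60 and 0.98. Phlda3 reached 69.5 ± 2.40 CPM at 72 h against 19.4 ± 2.07 CPM in sham, Bbc3 rose by 1.21 and Trp53 by 0.98 on the log2 scale at that time.

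The genes whose levels ran most like each member were ranked by Pearson's r of log2 CPM over the 18 libraries, as a description, since the libraries share their groups and times. Zfp36 ran closest to Egr1 (r = 0.983), Apold1 (0.980) and Btg2 (0.974), and Btg2 to Apold1 (0.982), Zfp36 and Csrnp1 (0.963). Ier2 ran closest to Jun (0.969), Egr1 (0.967) and Zfp36 (0.964), so the 3 members that were highest at 1 h were among each other's nearest genes or shared them. The genes nearest to Myc included Ccn2 (0.968) and Cxcl5 (0.966), and Btg1 ran closest to Cd14 (0.980), Il17ra (0.971) and Hif1a (0.967). Ier3 ran closest to Pgf (0.954), Gprc5a (0.953) and Zfp697 (0.949). Ier5 ran closest to Gadd45g (0.953), Atf3 (0.935) and Socs3 (0.927), and Gadd45b to Nfkbiz (0.901), Socs3 (0.893) and Atf3 (0.888). Zfp36l1 ran closest to Spty2d1 (0.908), Slit3 (0.900) and Ptger4 (0.884), and Zfp36l2 to Shisa5 (0.969), Ptbp3 (0.968) and Ptprj (0.967). Between members, r was 0.107 for Zfp36 and Zfp36l2 and 0.822 for Zfp36l1 and Zfp36l2.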

How the data were processed

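RNA was sequenced from 18 tissue samples (6 groups of 3), with poly(A) selection and no molecular identifiers, per the labels' protocols. The authors deposited whole-number read counts per Ensembl gene and FPKM values. Per the submitters' processing notes, cutadapt 1.18, HISAT2 2.1.0, featureCounts and build mm10 were used. For MI 6 h, the deposited FPKM of replicate 2 fitted the counts of replicate 3 and the reverse, so FPKM followed the counts here. Symbols, positions and 3′ UTRs came from GENCODE M21, promoters from RefSeq on GRCm38.p6, with Zfp36l2, Ier2 and Myc not held in that table.

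The deposited counts were tested with edgeR 4.0.16 under R 4.3.3 (filterByExpr, TMM, robust quasi-likelihood fit, 1 mean per group, 18 libraries, two-sided tests). Adjusted p was taken over 16311 genes, with a threshold of 0.05. The test was tried on simulated data. Alternatives used library totals, RLE factors, other filters, a replicate block, the 6 libraries alone, DESeq2 1.42.0 and limma 3.58.1 on log2(FPKM + 1) or log2(FPKM + 0.1), and each library was left out. A fold against a group with no more than 3 counts in any library was a bound. Members and lists were chosen with earlier results of these data known. Named genes were the members, the 3 genes of each list with the smallest p over the time course, and the 3 genes of at least 50 mean counts most like each member, of which 2 are not reported here. Total counts per library limit the precision of low genes. The p-values of the main fit rest on a spread between mice that was estimated over all 6 groups of 3. A wide spread in 1 group therefore also bears on comparisons without that group.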

Additional observations from a re-analysis of the deposited data

How the results depend on the processing

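No difference of a member was called in opposite directions: of 45 calls for a member in 9 comparisons, 30 held in all 9 alternatives and with each of the 18 libraries left out, 15 were lost in at least 1, and 21 differences that were not called became calls in at least 1. With 1 library left out at a time the number of members called was 0 at 10 min in each case, 3 to 4 at 1 h, 7 to 10 at 6 h, 8 to 9 at 24 h and 5 to 8 at 72 h against sham (5 without sham replicate 2), and 2 to 5, 2 to 5, 2 to 8 and 4 to 6 in the 4 consecutive comparisons. Fitting only the 6 libraries compared gave 3 members at 10 min (Btg2 and Ier2 higher, Ier3 lower), 7 at 1 h and 1 from 6 h to 24 h, against 0, 4 and 3. Without a filter on low counts 2 members were called from 1 h to 6 h, against 4. Leaving out the 2 libraries with the highest neutrophil marker sums was an alternative chosen after seeing the data. It gave 3 members at 10 min (Zfp36 and Btg2 higher, Ier3 lower), 7 at 1 h, 7 from 10 min to 1 h and 7 from 6 h to 24 h. The cause was not tested. Over all genes, the 12 calls at 10 min became 0 to 24 with a library left out, 2 with limma on log2(FPKM + 1), 53 without the 2 libraries and 360 with the 6 libraries alone. In the main fit of all 18 libraries 1144 genes had an unadjusted p under 0.05 at 10 min. The 48 calls at 1 h became 31 to 68 with a library left out, 108 without the 2 and 190 with the 6 alone, and the 50 from 10 min to 1 h became 6 to 87, 167 and 244. The 4639 calls at 6 h became 2926 and the 4003 from 1 h to 6 h became 2481 without MI 6 h replicate 1, and the 4541 from 6 h to 24 h lay between 1024 (the 6 alone) and 6880. Replicate numbers are shared between groups. Of 45 same-numbered pairs 4 had a correlation of deviations over 0.1 (range -0.26 to 0.25). The median correlation was 0.035 over same-numbered pairs and -0.013 over the other pairs, and 9 of the 18 libraries were closest to those of their own number. These small values do not decide whether the numbers pair the mice. With the replicate block 2 calls were lost, Zfp36 and Gadd45b at 72 h (adjusted p = 0.0519 and 0.056), and 1 was gained, and the members called were 0, 4, 10, 8 and 6 against sham, against 0, 4, 10, 8 and 8 without it. With library totals alone the share of calls that were higher moved from 41.7% to 77.8% at 10 min, from 59.2% to 45.7% from 1 h to 6 h, from 50.9% to 88.0% from 6 h to 24 h and from 48.4% to 81.5% from 24 h to 72 h. Myc had 37 to 52 counts in the sham libraries, the lowest depth of any member there.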
